A study of Mus musculus with 4 samples.

Results

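The genes described here handle zinc, copper and iron. They comprise the zinc transporter families Slc30 and Slc39, the metallothioneins Mt1 to Mt4 with their metal sensor Mtf1, and a fixed set of copper and iron transporters, storage proteins, reductases and regulators. Members were taken by gene symbol, and 46 of the 24421 genes in the count tables matched: 29 for zinc, 5 for copper and 12 for iron. Metallothioneins also bind copper and were counted with zinc. Poly(A) RNA was read from cortical neural stem cells of C57BL/6J mice, taken at embryonic day 17 and cultured for 1 day with EGF and basic FGF. The 2 control libraries carried Prrc2bf/f, a Prrc2b gene flanked by loxP sites, without Cre. The 2 libraries labelled Prrc2bf/f; Nestin-Cre carried the same alleles together with a Cre recombinase under the regulatory sequence of Nes, a gene of neural progenitors, so that any cell of the culture that never used this sequence would keep the intact gene. Whether replicates are separate embryos or cultures is not in the labels, and the spread behind each p-value may therefore be only technical.

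Cells keep these metals available and yet bound. Slc39 proteins bring zinc into the cytosol and Slc30 proteins move it out or into vesicles, while metallothioneins hold zinc and copper through clusters of cysteines and are transcribed when MTF1 senses free zinc. Copper enters through CTR1 (Slc31a1), is carried by the chaperone ATOX1 and is pumped into the secretory pathway by ATP7A and ATP7B. Iron arrives on transferrin (Trf), enters with the transferrin receptor (Tfrc), is reduced in endosomes, is released through DMT1 (Slc11a2) and is stored in ferritin (Fth1 and Ftl1) or exported by ferroportin (Slc40a1). The iron regulatory proteins encoded by Aco1 and Ireb2 bind hairpins called iron responsive elements when iron is low, which blocks translation of ferritin and stabilises the transferrin receptor transcript.

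Iron responsive elements are shown first because they are the sequence through which the iron regulatory proteins act. The untranslated regions of 21877 coding genes in GENCODE M21 (mm10) were searched for a bulged C, 5 paired bases, the loop CAGTGN and the 5 pairing bases, with G-T pairs allowed. This strict pattern leaves out elements of other shape, such as the one known in Slc11a2. A match was found in 160 genes (0.731%) and in 4 of the 46 members (8.7%). Fth1, Ftl1 and Slc40a1 held 1 each in the 5′ untranslated region and Tfrc held 4 in the 3′ untranslated region. Capitals mark the bulged C and the loop.
Fth1: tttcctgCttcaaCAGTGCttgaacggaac
Ftl1: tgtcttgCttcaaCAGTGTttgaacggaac
Slc40a1: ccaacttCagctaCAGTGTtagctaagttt
Tfrc site 1: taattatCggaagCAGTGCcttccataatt
Tfrc site 2: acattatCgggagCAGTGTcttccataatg
Tfrc site 3: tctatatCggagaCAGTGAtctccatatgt
Tfrc site 4: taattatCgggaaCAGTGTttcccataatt
The paired bases on both sides of the loop were the same in Fth1 and Ftl1, the ferritin subunit genes whose transcripts are compared below.

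The metal response element bound by MTF1 was searched as TGCACNC or TGCGCNC on both strands, with overlapping matches counted once, in windows from 250 bases before to 50 after each RefSeq gene start (GRCm38.p6). Of 32851 windows of this length 25.7% held at least 1 match and 1.31% at least 3. A window was found for 37 members, in 49 windows, of which 22 (44.9%) held at least 1 match. No entry was found for Slc30a8, Slc39a4, Slc39a6, Slc39a14, Slc40a1, Slc11a2, Trf, Hmox1 and Heph. The 3 members with at least 3 matches were Mt1, Mt2 and Slc30a4. The 200 bases before the start of the metallothioneins of neural and general expression and of the zinc exporter gene Slc30a1, a textbook MTF1 target, are printed with matches in capitals.
Mt1, chr8:94178889-94179088, plus strand: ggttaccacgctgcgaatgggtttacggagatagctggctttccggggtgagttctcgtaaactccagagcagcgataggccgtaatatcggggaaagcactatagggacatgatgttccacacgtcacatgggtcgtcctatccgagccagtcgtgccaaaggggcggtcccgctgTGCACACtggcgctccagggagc
Mt2, chr8:94172418-94172617, plus strand: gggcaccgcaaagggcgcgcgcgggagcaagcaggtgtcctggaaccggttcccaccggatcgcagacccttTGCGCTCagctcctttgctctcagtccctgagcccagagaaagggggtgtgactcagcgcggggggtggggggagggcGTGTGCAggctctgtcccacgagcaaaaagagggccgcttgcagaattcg
Mt3, chr8:94152407-94152606, plus strand: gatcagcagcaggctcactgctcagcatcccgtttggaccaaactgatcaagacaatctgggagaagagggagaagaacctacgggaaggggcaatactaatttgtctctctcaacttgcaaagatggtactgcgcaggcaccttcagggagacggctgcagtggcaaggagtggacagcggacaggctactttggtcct
Slc30a1, chr1:191906581-191906780, plus strand: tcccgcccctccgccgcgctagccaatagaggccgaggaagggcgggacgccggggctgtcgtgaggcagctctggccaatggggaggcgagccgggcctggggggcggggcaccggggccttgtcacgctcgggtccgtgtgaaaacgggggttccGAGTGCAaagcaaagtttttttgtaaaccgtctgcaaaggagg
These stretches held 1 match in Mt1, 2 in Mt2, 1 in Slc30a1 and 0 in Mt3, while the whole windows held 3, 4, 2 and 1 in the same order. Starts are those of the RefSeq entries, and a gene can have others. The exons of all annotated forms of Mt1 cover 1.246 kb, and its main form 0.549 kb. Whether matches after the RefSeq start of Mt1 lie before the start of its main form was not tested. Within 50 bases after the start, Mt1 held 2 further matches (cTGCACTCcgcccgaaaagTGCGCTCg) and Mt2 held 1 (cGTGCGCAg).

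Gene totals ran from 25936794 to 28263272 counts per library. Levels are CPM, the counts scaled to a common library total with the trimmed mean of M values. Prrc2b itself stood at 591 ± 4.24 CPM (SD, n = 2) in control and at 574 ± 1.37 CPM in the Nestin-Cre libraries (log2 fold change -0.04 ± 0.02 SE, edgeR quasi-likelihood adjusted p = 0.13), and reads of undeleted exons would still be counted, so this total does not check the label. The 4 Y-linked genes examined summed to 67.5 and 64.7 CPM in the controls and had 0 counts in both Nestin-Cre libraries. Xist, the RNA of the inactive X chromosome, stood at 1673 and 1615 CPM in the controls and at 2209 and 2119 CPM in the Nestin-Cre libraries (0.40 ± 0.02, edgeR quasi-likelihood adjusted p = 1.9e-18). The controls thus held both Y-linked transcripts and abundant Xist, and the labels do not say whether embryos were pooled. Genotype and the sex makeup of the material cannot be told apart in any comparison. No group carried Cre without the loxP-flanked gene, so the presence of Cre and the loss of Prrc2b cannot be told apart either. Among neural stem cell markers Sox2 stood at 445 and 443 CPM and Nes at 630.2 and 539.5 CPM in control and Nestin-Cre means, and of 8 such markers 2 rose and 3 fell. In bulk RNA, fewer cells of a type and less transcript per cell cannot be told apart.

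More metal-handling genes were lower than higher in the Nestin-Cre libraries. Of 43 members with enough counts to test, 17 fell and 5 rose at an adjusted p under 0.05, and 21 did not pass. The share called was 51.2%, against 33.1% of all 15012 genes tested. The share that fell was 39.5% against 18.1% of all genes, and the share that rose 11.6% against 15.1%. The median log2 fold change was -0.08 over the members and 0.0047 over all genes. All 22 called members had groups that did not overlap. Calls and overlap were read from the same libraries, so this adds no separate support to the calls. Over the 43 tested members 34 (79.1%) did not overlap, beside 64.9% of all genes.

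Most differences were small. Of the 22 called members 11 differed by less than 1.2-fold, and 6 differed by at least 0.5 on the log2 scale (14% of tested members, against 6.89% of all genes). The 6 were Slc39a12 and Slc30a10, which rose, and Steap3, Hmox1, Slc31a2 and Trf, which fell. Calls held in all 14 alternative analyses for 13 members, 3 higher and 10 lower. The other 9 were lost in at least 1. Those were Slc30a7, Slc39a2, Slc39a6, Slc39a7, Slc39a11, Mt1, Mt3, Atp7a and Steap2.

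The members' counts were read against the same background in the alternatives. DESeq2 called 3 members higher and 11 lower, where it called 18.0% of all genes, 7.03% higher and 10.9% lower. At a threshold of 0.01, 3 were higher and 12 lower, where 9.93% of all genes were higher and 13.6% lower, or 23.5% called. Scaling by upper quartiles gave 5 and 13, beside 19.6% and 15.2% of all genes, and by total counts 5 and 14, where 33.4% of all genes were called. With no filter on low counts 4 and 13 passed, beside 9.19% of 19264 genes higher and 21.2% called, and limma voom gave 4 and 17 beside 14.8% and 18.0%. A replicate block, which called 35.5% of all genes, gave 5 and 17. Without any 1 library 4 were higher and 12 or 13 lower, where 26.1% to 28.1% of all genes were called.

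**Figure D1:**
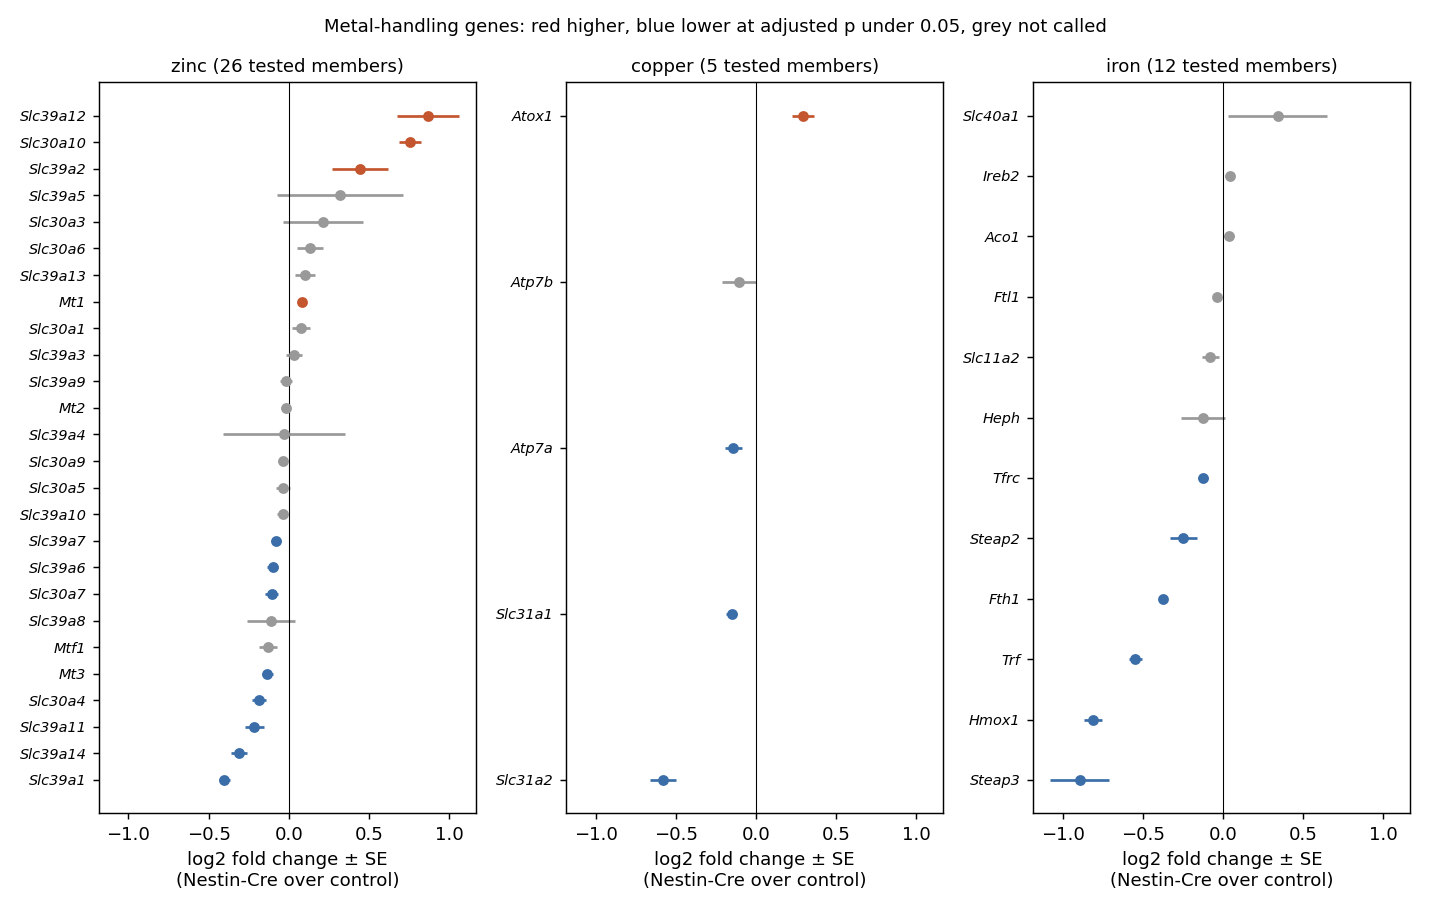
Log2 fold change (x axis, Nestin-Cre over control, bars ± SE) of each tested member, by metal. Red points are higher and blue points lower at an adjusted p under 0.05 and grey points did not pass. The 12 iron genes hold 6 blue and no red points, and the zinc genes spread to both sides, from Slc39a1 at -0.40 to Slc39a12 at 0.87.

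Among the iron genes, 6 of 12 fell and 0 rose. Of all genes tested 18.1% fell and 15.1% rose, so few rises would be looked for among 12 genes. No iron gene was higher at an unadjusted p under 0.05 in the edgeR quasi-likelihood test, and DESeq2 and limma voom also called 0 as higher. The median log2 fold change was -0.13. The falls included the carrier transferrin, its receptor, an endosomal reductase, the heavy ferritin chain and the haem-degrading enzyme HMOX1, whereas both iron regulatory protein genes did not pass.

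Delivery genes fell to unequal extents. Trf, the iron carrier of plasma and cerebrospinal fluid (chromosome 9, 103204001 to 103230444), stood at 109.7 and 104 CPM in controls 1 and 2 and at 72.0 and 74.2 CPM in Nestin-Cre 1 and 2. Both Nestin-Cre libraries were well below both controls, a change of -31.5% (log2 fold change -0.55 ± 0.04, adjusted p = 1.9e-14). Tfrc, which takes up iron-loaded transferrin (chromosome 16, 32608920 to 32632794), gave 184 and 178 CPM in the controls and 167 and 164 CPM in the Nestin-Cre libraries. Its groups were separate but close, and the change was -8.43% (-0.13 ± 0.03, adjusted p = 0.0012).

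The endosomal steps downstream of the receptor differed by gene. Steap3, the endosomal ferrireductase of the transferrin cycle, was scarce, at 4.05 and 3.76 CPM in control and 1.95 and 2.27 CPM in the Nestin-Cre libraries. It had the deepest fall among the members (-0.89 ± 0.18, adjusted p = 0.00018). Steap2, a related reductase of iron and copper, stood at 18.3 and 16.8 CPM against 13.6 and 16.0 CPM, with Nestin-Cre replicate 2 just below the lower control. Its fall of 0.25 ± 0.08 on the log2 scale passed (adjusted p = 0.02) but passed in 9 of 14 alternatives only. It was lost without control replicate 1 (-0.19, adjusted p = 0.15) and without Nestin-Cre replicate 1 (-0.13, adjusted p = 0.39). Slc11a2, which releases the reduced iron to the cytosol, gave 39.7 and 39.3 CPM and then 37.4 and 37.4 CPM (-0.08 ± 0.05, adjusted p = 0.26) and did not pass.

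Ferritin subunits separated. Fth1 encodes the heavy chain with the ferroxidase centre (chromosome 19, 9980598 to 9985098) and Ftl1 the light chain that favours mineral core formation (chromosome 7, 45457944 to 45459884). Fth1 stood at 683 and 691 CPM in the controls and at 520.2 and 538 CPM in the Nestin-Cre libraries, a change of -22.9% (-0.38 ± 0.02, adjusted p = 3e-16). Ftl1 gave 1370 and 1388 CPM and then 1339 and 1353 CPM, and did not pass (-0.03 ± 0.02, adjusted p = 0.18). The ratio of Fth1 to Ftl1 counts does not depend on scaling between libraries. It was 0.498 in both controls and 0.389 and 0.398 in Nestin-Cre 1 and 2, with no overlap. With 2 against 2 libraries the smallest two-sided exact permutation p is 0.333, so the ratio itself carries no test below that. Ferritin genes have many processed copies in the mouse genome, and reads that could not be placed uniquely were not counted, so both levels are uncertain in absolute terms.

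**Figure D2:**
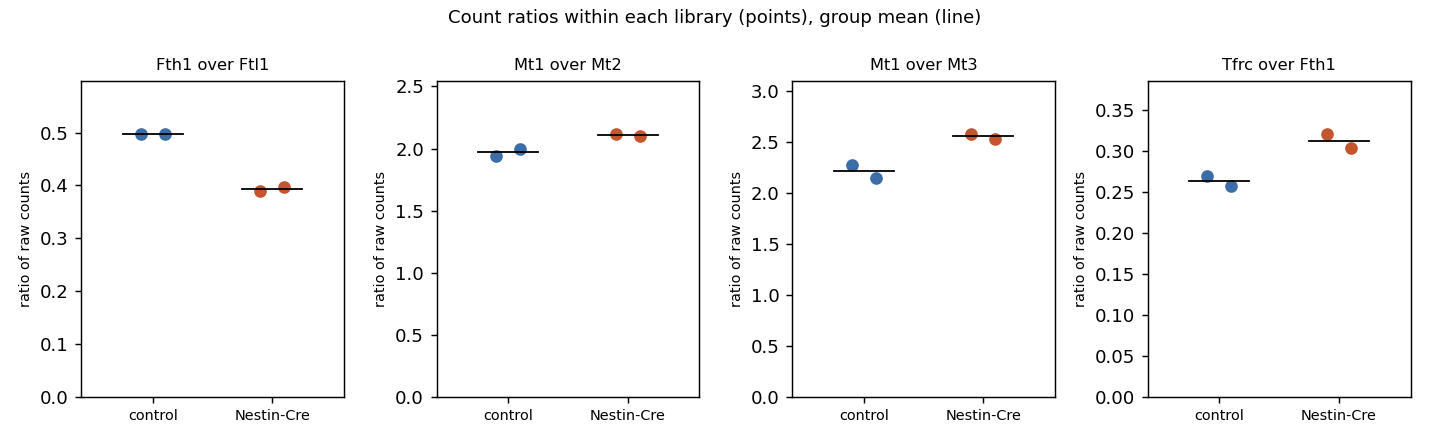
Ratio of raw counts of gene pairs within each library (points; lines are means of 2 libraries; y axes start at 0). Fth1 over Ftl1 was 0.498 in both controls against 0.389 and 0.398, and Tfrc over Fth1, Mt1 over Mt2 and Mt1 over Mt3 were higher in both Nestin-Cre libraries.

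Genes with a match to the iron responsive element pattern did not move as one. Of the 4, Fth1 and Tfrc fell, while Ftl1 and Slc40a1 did not pass. Tfrc fell less than Fth1, so that the count ratio of Tfrc to Fth1 went from 0.269 and 0.257 in the controls to 0.321 and 0.304. Slc40a1, the sole known cellular iron exporter, was nearly absent, at 0.833 and 0.852 CPM in control and 1.06 and 1.08 CPM in the Nestin-Cre libraries, or 22 to 30 counts (0.34 ± 0.31, adjusted p = 0.43). Aco1 gave 129 and 129 CPM and then 130.2 and 134 CPM (0.04 ± 0.03, adjusted p = 0.45). Ireb2 gave 181 and 178 CPM and then 186 and 184 CPM (0.04 ± 0.03, adjusted p = 0.3). For both iron regulatory protein genes the Nestin-Cre libraries lay just above the controls, by less than the test could call.

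Hmox1 encodes haem oxygenase 1, the stress-inducible enzyme that frees iron from haem (chromosome 8, 75093621 to 75100589). It stood at 47.0 and 44.1 CPM in the controls and at 25.0 and 27.0 CPM in the Nestin-Cre libraries. The change was -43% (-0.81 ± 0.06, adjusted p = 1.4e-14) and the groups were far apart. Heph, a membrane ferroxidase that works with the exporter, gave 5.38 and 5.29 CPM and then 4.60 and 5.19 CPM (-0.13 ± 0.14, adjusted p = 0.53).

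**Figure D3:**
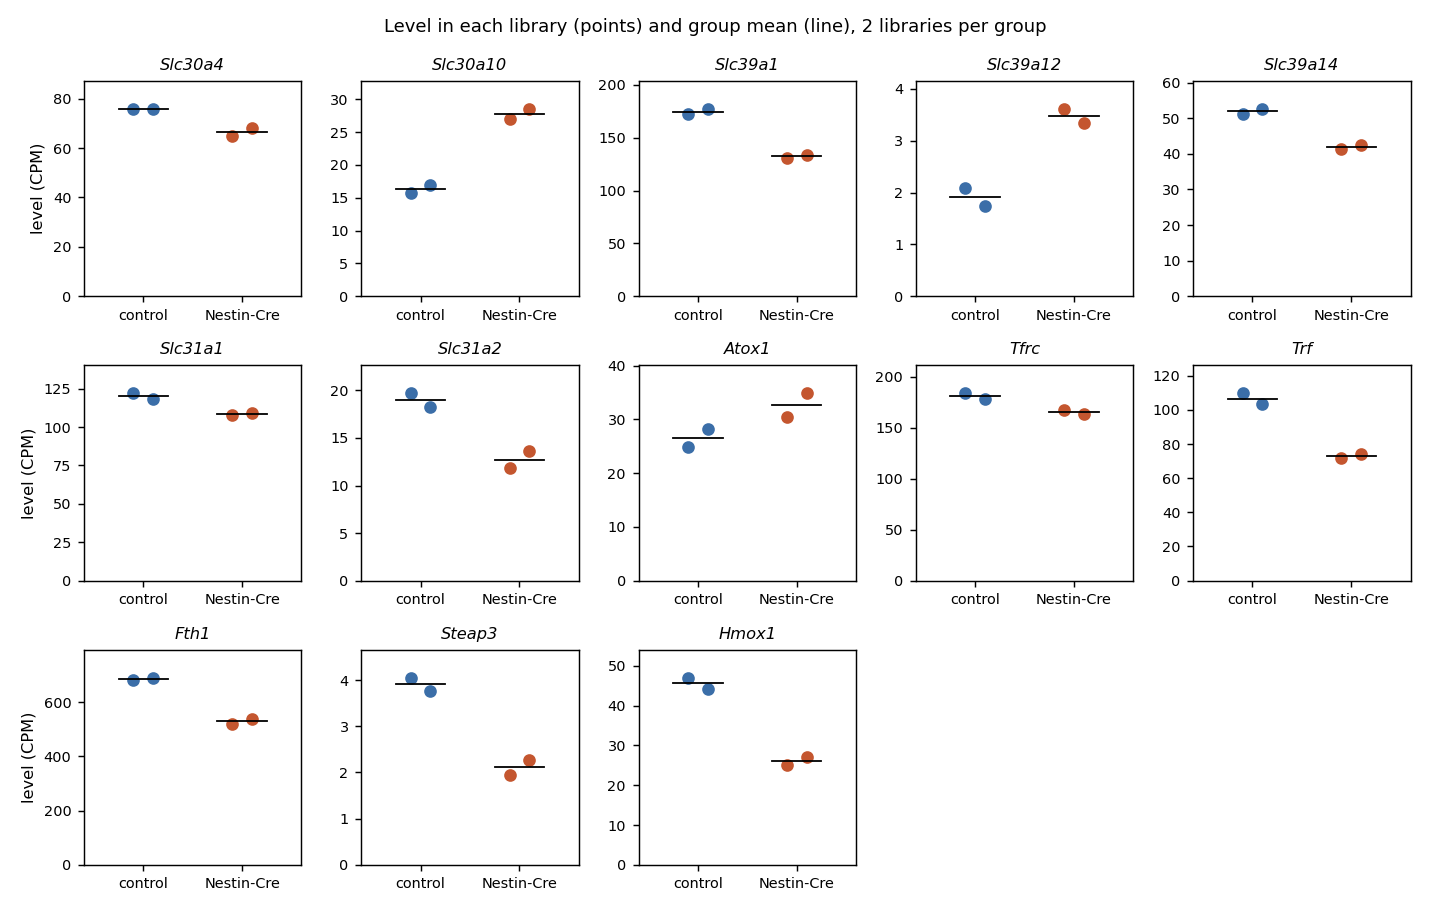
Level (y axes, CPM from 0) in each library for the 13 members whose call held in all 14 alternatives; points are libraries and lines the means of 2. Slc30a10, Slc39a12 and Atox1 were higher in both Nestin-Cre libraries and the other 10 were lower, with no overlap between groups.

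Zinc genes moved both ways. Of 26 tested 8 fell, 4 rose and 14 did not pass, with a median log2 fold change of -0.03. The share called was 46.2% beside 33.1% of all genes, and the share that rose was near the 15.1% of all genes. The 3 others were too scarce to test. Mt4, a metallothionein of stratified epithelia, had 0 counts in all 4 libraries, which allows up to 0.106 to 0.115 CPM at 3 counts. Slc30a8, the zinc transporter of insulin granules, had 0, 0, 1 and 0 counts. Slc30a2, a vesicular transporter of secretory epithelia, had 3 and 10 counts in the controls and 1 and 1 in the Nestin-Cre libraries.

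Metallothioneins, the sensor Mtf1 and its target Slc30a1 differed little. Mt1 stood at 342 and 349.6 CPM in the controls and at 364 and 367 CPM in the Nestin-Cre libraries, a rise of 5.74% (0.08 ± 0.03, adjusted p = 0.012). Mt2, its neighbour on chromosome 8, gave 176 and 175 CPM and then 172 and 174.5 CPM (-0.02 ± 0.03, adjusted p = 0.65), a value whose sign turned with upper quartile scaling (0.006). Mt3, the metallothionein of neural expression, gave 150.4 and 163 CPM and then 141 and 145 CPM and fell (-0.13 ± 0.03, adjusted p = 0.0023). Thus of the tandem genes Mt1 rose, Mt3 fell and Mt2 did not pass. The Mt1 call was made in 10 of 14 alternatives and was lost without control replicate 1 (adjusted p = 0.095) or Nestin-Cre replicate 2 (adjusted p = 0.088). The Mt3 call was made in 13 and was lost without control replicate 2 (-0.08, adjusted p = 0.15). Within a library, Mt1 over Mt3 counts were 2.27 and 2.15 in control and 2.58 and 2.53 in the Nestin-Cre libraries, and Mt1 over Mt2 were 1.94 and 2 and then 2.12 and 2.1. Of the 0.588 kb of Mt2 exons, 432 bases are shared with the opposite-strand gene Gm45774, and the strand setting of the counting is not known here. The level of Mt2 and its ratio to Mt1 are therefore uncertain.

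Mtf1, the zinc sensor, gave 34.0 and 35.0 CPM and then 32.5 and 30.5 CPM and did not pass (-0.13 ± 0.06, adjusted p = 0.079). Slc30a1, the plasma membrane zinc exporter, gave 32.7 and 33.7 CPM and then 36.2 and 33.8 CPM (0.08 ± 0.06, adjusted p = 0.32). The Nestin-Cre libraries lay above the controls by as little as 0.1 CPM for Slc30a1, so that difference was within the spread of replicates.

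In the Slc30 family 1 of 8 tested genes rose, 2 fell and 5 did not pass. The share called was 37.5%, near the 33.1% of all genes. Slc30a10, whose protein exports manganese from cells (chromosome 1, 185454848 to 185468762), had the clearest rise of the members, from 15.8 and 17.0 CPM to 27.0 and 28.5 CPM. That is an increase of 69% (0.76 ± 0.07, adjusted p = 1.9e-11). Its exons share 533 bases with the opposite-strand gene Gm2061, and the strand setting of the counting is not known here. Slc30a4, a transporter of endosomes, fell by 0.19 ± 0.04 on the log2 scale (adjusted p = 0.00043). Slc30a7, a Golgi zinc transporter, was at the edge of the threshold (-0.11 ± 0.04, adjusted p = 0.049), and its call was lost without control replicate 1 or Nestin-Cre replicate 1. The secretory pathway transporters Slc30a5 and Slc30a6, the mitochondrial and nuclear Slc30a9 and the synaptic vesicle transporter Slc30a3 did not pass, with log2 fold changes from -0.04 for Slc30a5 to 0.22 for Slc30a3.

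In the Slc39 family 2 of 14 genes rose, 5 fell and 7 did not pass. The share called was 50%, against 33.1% of all genes (15.1% higher and 18.1% lower), and the share that rose was near that of all genes. Slc39a1, a broadly used plasma membrane zinc importer (chromosome 3, 90248172 to 90253612), fell from 172 and 177 CPM to 131 and 134 CPM. The change was -24.3% (-0.40 ± 0.03, adjusted p = 3.6e-13). Slc39a14, which imports manganese, zinc and iron not bound to transferrin, fell from 51.3 and 52.6 CPM to 41.5 and 42.4 CPM (-0.31 ± 0.05, adjusted p = 2.1e-06). The manganese transporters thus differed in direction, with the exporter gene Slc30a10 higher and the importer gene Slc39a14 lower. Slc39a8, the closest relative of Slc39a14, gave 4.32 and 5.11 CPM and then 4.14 and 4.62 CPM, with overlapping groups (-0.11 ± 0.15, adjusted p = 0.61).

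The rises in this family were in scarce transcripts. Slc39a12, a zinc importer found mainly in brain, rose from 2.08 and 1.74 CPM to 3.61 and 3.35 CPM (0.87 ± 0.19, adjusted p = 0.00049). Slc39a2 rose from 3.22 and 2.70 CPM to 4.53 and 3.46 CPM (0.45 ± 0.18, adjusted p = 0.047), a call made in 8 of 14 alternatives. It was lost without control replicate 2 (0.32, adjusted p = 0.28) and without Nestin-Cre replicate 1 (0.23, adjusted p = 0.52). Its exons share 151 bases with Mettl17 on the same strand. The remaining falls were small, at -0.21 ± 0.06 for the Slc39a11 transcript, -0.10 ± 0.03 for Slc39a6 and -0.08 ± 0.03 for Slc39a7, the importer that releases zinc from the endoplasmic reticulum. These 3 calls passed in 11, 8 and 4 of 14 alternatives. The Slc39a11 call was lost without replicate 2 of either group, the Slc39a6 call without any library but control replicate 2, and the Slc39a7 call without any 1 library. Besides Slc39a8, the genes that did not pass were Slc39a3, Slc39a4, Slc39a5, Slc39a9, Slc39a10 and Slc39a13, with log2 fold changes from -0.04 for Slc39a10 to 0.32 for Slc39a5, which had at most 20 counts in a library.

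Of the 5 copper genes 3 fell, 1 rose and 1 did not pass, with a median log2 fold change of -0.14. Of all genes 33.1% were called, 18.1% lower and 15.1% higher, and a share of only 5 genes is coarse beside these. Slc31a2, an endosomal relative of the copper importer (chromosome 4, 62262562 to 62298411), fell from 19.7 and 18.3 CPM to 11.9 and 13.6 CPM, a change of -33% (-0.58 ± 0.08, adjusted p = 5.2e-07). The importer gene Slc31a1 itself gave 122 and 118 CPM and then 107.5 and 109 CPM, a smaller fall (-0.15 ± 0.03, adjusted p = 0.00072). Atox1, the cytosolic copper chaperone, moved the other way, from 24.8 and 28.2 CPM to 30.4 and 34.8 CPM (0.29 ± 0.07, adjusted p = 6e-04). Replicates of Atox1 were unequal, with replicate 2 the higher in both groups, and the gap between the groups was smaller than the gap within each. Without Nestin-Cre replicate 2 the rise was 0.20 (adjusted p = 0.041).

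The copper pumps were lower or not called. Atp7a, on the X chromosome, gave 36.3 and 35.8 CPM and then 32.6 and 32.8 CPM (-0.14 ± 0.06, adjusted p = 0.045). That call was made in 5 of 14 alternatives and was lost without any 1 library, and the highest adjusted p was 0.3. Atp7b, the pump of liver and bile, gave 8.86 and 10.5 CPM and then 9.69 and 8.27 CPM, with overlapping groups (-0.11 ± 0.11, adjusted p = 0.5). Atp7a and Heph are the 2 X-linked members, and the part of the difference in Y-linked transcripts in their values was not tested.

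Other genes of the same pathways, outside the rule, numbered 48 with enough counts to test. Of these 15 were called (31.2%), 6 higher and 9 lower, a share near the 33.1% of all genes. Iron genes gave 5 higher and 7 lower of 31, copper genes 1 higher and 2 lower of 13. Of 4 zinc genes 0 were called by the edgeR quasi-likelihood test, DESeq2 or limma voom, and 1 had an unadjusted p under 0.05.

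Those called with a log2 size of at least 0.5 are given in every library. Lcn2, which binds iron-loaded siderophores, was at 96.2 and 98.1 CPM in control and 3.57 and 4.16 CPM in the Nestin-Cre libraries (-4.66 ± 0.07, adjusted p = 1.4e-35). Cp, the ferroxidase ceruloplasmin that carries copper, fell from 105 and 103 CPM to 33.3 and 33.5 CPM (-1.64 ± 0.04, adjusted p = 1.5e-27). Cybrd1, a surface ferrireductase, fell from 271 and 254 CPM to 166 and 156 CPM (-0.71 ± 0.03, adjusted p = 4.4e-20). In each of them the groups were far apart.

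Steap4, a metalloreductase related to Steap2 and Steap3, fell from 7.80 and 7.60 CPM to 0.778 and 0.846 CPM (-3.24 ± 0.19, adjusted p = 1.2e-16). Bmp6, the ligand that raises hepcidin in liver, rose from 3.29 and 2.77 CPM to 5.02 and 5.81 CPM (0.84 ± 0.16, adjusted p = 5.5e-05). Among copper-dependent enzymes Loxl1, a crosslinker of elastin, fell from 52.1 and 52.9 CPM to 25.8 and 26.3 CPM (-1.01 ± 0.05, adjusted p = 2.4e-18). The mitochondrial genes Iscu and Nfs1, which build iron-sulphur clusters, and the copper chaperone genes Cox17, Cox11 and Sco1 did not pass.

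Levels were compared between genes per kilobase of the principal transcript. Ftl1 was the most abundant, at 1420 CPM per kilobase in control and 1390 in Nestin-Cre means, followed by Mt1 (630 and 666) and Fth1 (460 and 354). Mt2 gave 344 and 339 and Mt3 292 and 267 CPM per kilobase. The order below Ftl1 depends on the length used: per kilobase of all annotated exons Mt1 gave 277 and 293 CPM, Mt2 299 and 294, and Fth1 198 and 153. Among zinc transporters Slc39a1 led with 73.9 and 56 CPM per kilobase, ahead of Slc39a7 (66.5 and 62.8), and in the Nestin-Cre means that order was the opposite. Transferrin and its receptor also changed places, with Trf at 41.5 and 28.4 and Tfrc at 36.9 and 33.8 CPM per kilobase. On the length of all annotated exons Slc39a1 (73.8 and 55.9) and Slc39a7 (59.7 and 56.4), and Trf (32.1 and 22) and Tfrc (29.2 and 26.7), gave the same exchange. In GENCODE M21, Trf exons share 2108 bases with Gm20425 and Slc39a7 exons 2084 bases with Gm20427, both on the same strand. How reads of these stretches were assigned is not known here, so the levels of Trf and Slc39a7 relative to other genes are uncertain. The same holds for Mt2, whose exons share 432 bases with the opposite-strand gene Gm45774.

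**Figure D4:**
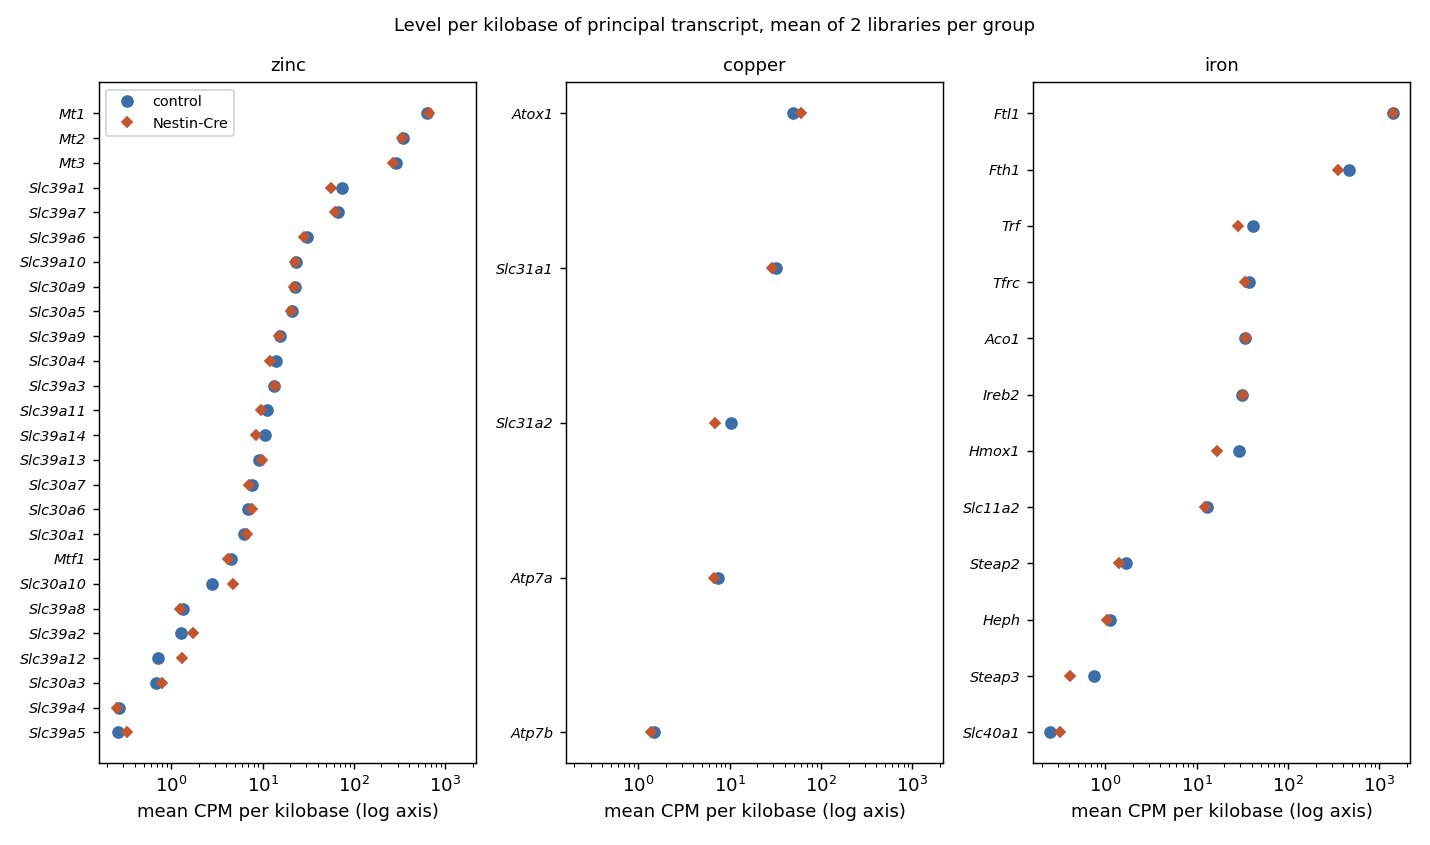
Mean level per kilobase of principal transcript (x axis, CPM per kilobase, logarithmic) of the tested members, for control (blue circles) and Nestin-Cre (red diamonds) means of 2 libraries. Storage proteins lead, with Ftl1 at 1420 and Mt1 at 630 in control, and the exporter Slc40a1 is lowest among the iron genes at 0.25.

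Markers of other cells moved with the groups, and their part in the results above was not tested. Of 12 choroid plexus markers 10 rose and 0 fell, and their sum went from 216 and 225 CPM in control to 1380 and 1390 CPM. The choroid plexus is a known source of transferrin, and its part in the Trf values was not tested. Of 9 oligodendrocyte lineage markers, another cell type known to make transferrin, 5 rose and 1 fell, with sums of 1450 and 1490 and then 1600 and 1640 CPM. Of 7 tested astrocyte markers 6 fell, with sums of 4270 and 4250 and then 2990 and 2990 CPM. Of 6 neuron markers 4 rose and 0 fell, with sums of 1610 and 1610 and then 1890 and 1860 CPM. All 8 mural cell and fibroblast markers were tested, 7 fell and 1 rose, and the sum went from 188 and 183 to 60.5 and 64.1 CPM. Microglia and macrophages, which recycle iron, had 8 tested markers of which 5 fell and 0 rose. Of 7 tested endothelial markers 2 fell and 1 rose. The haemoglobin genes Hba-a1, Hba-a2, Hbb-bs and Hbb-bt had 0 counts in all 4 libraries.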

How the data were processed

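The deposited tables hold raw counts per gene symbol, 1 table per library. HISAT2 2.2.1, HTSeq 0.12.4, DESeq2 1.26.0 and the build mm10 are named in the submitters' processing notes, with no annotation or strand setting. Unassigned reads (25.2% to 26.1% of entries) were left out. Genes passing filterByExpr (15012) were fitted with edgeR 4.0.16 (quasi-likelihood F test, legacy off, trimmed mean of M values) in R 4.3.3, with Benjamini-Hochberg adjustment over all of them and a threshold of 0.05. SEs were derived from the log2 fold change and F. Alternatives used other scalings, filters and thresholds, limma 3.58.1, DESeq2 1.42.0, a replicate block and omission of each library. Genes named with values in every library were 24 listed genes, other called members of at least 0.3 in log2 size, and up to 5 other metal genes per metal of at least 0.5. Members and lists were chosen with earlier results of these data known. Principal transcript lengths (longest of best APPRIS rank, GENCODE M21) were added after seeing the data. On simulated counts for 14102 genes, 58% of genes changed 1.2-fold and 92% of those changed 1.5-fold were recovered. Each fold had 50 changed genes and scarce genes were left out. Every gene was given the same spread, taken from this fit (biological coefficient of variation 0.0242). Recovery may be lower for genes with more spread or fewer counts. The floor of 3 counts covers counting error only. Some genes of the wider lists are not reported here.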

Additional observations from a re-analysis of the deposited data

How the results depend on the processing

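Of 600 member values over 14 alternatives, 540 kept direction and side of the threshold, 51 kept direction and lost the call, 0 gained one and 9 changed sign, in 6 genes that had not been called. The sign changes were upper quartile scaling for Slc39a9 (0.01) and Mt2 (0.006), omission of control replicate 1 for Slc39a3 (-0.003; range over omitted libraries to 0.074), of control replicate 2 for Slc39a4 (0.157), Slc39a8 (0.016) and Atp7b (0.023), and of Nestin-Cre replicate 2 for Slc39a4 (0.433), Slc39a9 (0.007) and Atp7b (0.001). Over omitted libraries the lowest values were -0.786 for Slc39a4, -0.226 for Slc39a8, -0.043 for Slc39a9 and -0.228 for Atp7b. DESeq2 called 3 members higher and 11 lower (zinc 2 and 4), among 1055 and 1642 of all genes, against 2263 and 2711 by edgeR. At a threshold of 0.01, 3 members were higher (zinc 2), 5 zinc members lower, and 1490 of all genes higher. Upper quartile scaling left 5 zinc members lower and put all genes at 2939 higher and 2288 lower. Leaving out any 1 library left 3 zinc members higher and 5 lower, in place of 4 and 8; fewer samples make these fits weaker, and the lone library of a group is assumed to vary like the others. Among other zinc genes, 1 was higher with upper quartile or total count scaling, the legacy fit or the replicate block, and 0 to 1 without 1 library. Other copper genes gave 2 higher with upper quartile or total count scaling or the replicate block, and 1 to 3 without 1 library (3 without control replicate 2). Other iron genes gave 2 higher with DESeq2, 3 at 0.01, and 2 to 5 without 1 library (3 without control replicate 1, 2 without Nestin-Cre replicate 2). The cause of the other moves was not tested. The correlation of replicate differences was 0.004 over all tested genes and 0.041 over genes with a mean count of at least 100. These low values showed no pairing by replicate number but cannot exclude it, since counting noise lowers such a correlation. With the replicate block 5 members were higher and 17 lower, as without it, and 2442 and 2881 of all genes. Depth limits Slc40a1, Slc39a4, Slc39a5 and Slc30a3, at under 50 counts a library.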
